A study of Mus musculus with 4 samples.

Results

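The strain difference of kidney nuclei at 10 weeks was taken from 2 libraries, MRL/lpr 10 weeks and C57BL/6 10 weeks, and was followed gene by gene through the nephron segments and the stroma. The 2 libraries gave 19047 nuclei (9430 of MRL/lpr and 9617 of C57BL/6) of the 38298 kept in all 4 libraries of the series. A barcode was kept above a fixed minimum of UMIs (unique molecular identifiers, each standing for 1 captured RNA molecule), with at least 200 genes and at most 10% of its UMIs from mitochondrially encoded genes. A kept nucleus took the class that held at least 60% of its marker UMIs, with at least 2 such UMIs from at least 2 markers of that class. In this way 15440 nuclei fell into 10 nephron and stroma classes.

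Both 10-week groups were female mice, and nuclei were isolated from kidney (cortex, per the series' design text) on an iodixanol gradient for droplet-based 3' sequencing. The lpr mutation disables Fas, a receptor that triggers cell death, and mice of this strain develop autoimmunity with nephritis. C57BL/6 served as the comparison strain, and the groups include no MRL animals that still have Fas. The effects of genetic background, of lost Fas and of disease cannot be told apart in what follows. The number of animals behind a library and the hour of collection are not given in the labels. The series holds 1 library per strain and age, so no difference has a replicate check and no test was run. The same ratio from the MRL/lpr and C57BL/6 libraries at 6 weeks, which share no library with the 10-week pair, is printed for part of the genes.

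Each nephron segment reads out its own gene program. The proximal tubule reclaims most of the filtered solutes and burns fatty acids, the thick ascending limb and distal convoluted tubule reabsorb salt, and the connecting tubule and collecting duct tune sodium, potassium, calcium, water and acid. Podocytes and fenestrated endothelium form the glomerular filter, and mural cells and fibroblasts surround the vessels and tubules. Most of these cells also run a circadian clock, in which Arntl (BMAL1) with Clock or Npas2 drives Per, Cry and Nr1d genes that in turn repress it, so the levels of clock genes depend on the hour of sampling. Interferon gamma, released by lymphocytes and natural killer cells, raises immunity GTPases and the machinery that loads peptides onto MHC molecules.

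The 10-week libraries held 6466973 UMIs in MRL/lpr and 6754055 in C57BL/6, with medians of 640 and 598 UMIs per kept nucleus. They shared 122 barcodes, and pairs of libraries over the series shared 107 to 136. H2-Ea, which C57BL/6 mice do not transcribe, had 44 UMIs in MRL/lpr (6.91 CPM, counts per 1000000 UMIs) and 0 in C57BL/6, where 0 allows 0.445 CPM. Mitochondrially encoded genes took 0.126% of the UMIs in MRL/lpr and 0.283% in C57BL/6, and ribosomal protein genes took 1.20% and 1.64%. Both shares were lowest in the MRL/lpr 10 week library of all 4, which bears on the genes set apart below.

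In the classes checked, the names held for most genes that did not choose the nuclei. All 27 podocyte structure genes measured stood above their proximal tubule level in C57BL/6, and 26 did in MRL/lpr. The same was found for 18 of 18 acid-base genes in intercalated cells and 27 of 27 endothelial genes, in both libraries. In the thick ascending limb 14 of 15 transport genes in MRL/lpr and 15 of 15 in C57BL/6 did so. Shares were lower in principal cells (14 of 16 in MRL/lpr and 13 in C57BL/6). The distal convoluted tubule (24 and 23 of 27) and connecting tubule (25 and 24 of 27) were checked with the same list. Connecting tubule nuclei held distal convoluted tubule markers at 30.3% and 31.9% of the level in that class. Mural cells had no such check. Free proximal tubule RNA was present in every other class. A list of proximal tubule genes stood there at 5.86% to 13.9% of its proximal tubule level in MRL/lpr and at 6.67% to 13.6% in C57BL/6. Genes were therefore picked by rank for another class only where their CPM there, in the library where it was higher, reached that of proximal tubule nuclei of the same library. Members of gene lists were not held to this limit, and where such a value lies below the proximal tubule level this is stated beside it.

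Proximal tubule nuclei made up 54.4% of the MRL/lpr library (95% exact binomial interval 53.4 to 55.4, 5130 nuclei) and 41.4% of the C57BL/6 library (40.5 to 42.4, 3985 nuclei). Endothelial nuclei made up 5.01% and 8.70%, and distal convoluted tubule nuclei 3.42% and 7.28%. The remaining classes held 148 to 514 MRL/lpr nuclei, other than fibroblasts (58 and 51 nuclei) and mural cells (21 and 22). Shares depend on what the nuclear preparation kept, which was not tested. Intervals here and below cover counting error only.

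The number of genes that could be compared followed the size of the class. Comparison required 50 UMIs or more for the gene in a class, both 10-week libraries together, and a gene was counted as apart where its CPM differed at least 2-fold, with a count of 0 set at 3 UMIs. In the proximal tubule 543 genes were higher (5.09%) and 365 lower (3.42%) in MRL/lpr, together 8.51% of the 10664 compared. The thick ascending limb had 55 higher (2.27%) and 89 lower (3.68%), together 5.95% of 2421. The distal convoluted tubule had 62 (2.34%) and 126 (4.76%), together 7.11% of 2646, and the connecting tubule 95 (2.79%) and 142 (4.17%), together 6.96% of 3407. In principal cells 34 were higher (3.77%) and 44 lower (4.87%), together 8.64% of 903, and in intercalated cells 47 (2.93%) and 51 (3.18%), together 6.11% of 1605. Podocytes had 41 higher (7.23%) and 50 lower (8.82%), together 16% of only 567 genes, and endothelium 60 (3.07%) and 88 (4.5%), together 7.56% of 1957. In fibroblasts 5 genes were higher (7.69%) and 4 lower (6.15%), together 13.8% of 65, and in mural cells 2 were higher (40%) and 0 lower of 5. Scaling to the median ratio moved the share of higher genes among those apart in fibroblasts from 55.6% to 44.4%. Lower genes outnumbered higher ones in every class other than proximal tubule, fibroblasts and mural cells. This order differed between settings, and the part of mitochondrial content in it was not tested. With nuclei of at least 500 UMIs podocytes had 36 higher and 31 lower genes, and endothelium 6 and 2. Median ratio scaling gave intercalated cells 53 and 48, and a minimum of 100 UMIs per gene gave principal cells 14 and 11. In each of these settings the other classes in which lower genes were more numerous kept that order. In nuclei with no mitochondrial UMI the thick ascending limb had 33 higher and 25 lower genes, with fewer genes compared. There connecting tubule had 51 and 40, principal cells 26 and 20, podocytes 31 and 13, and endothelium 18 and 14. Intercalated cells had 23 and 23, and the distal convoluted tubule kept more lower genes (22 and 45).

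**Figure D1:**
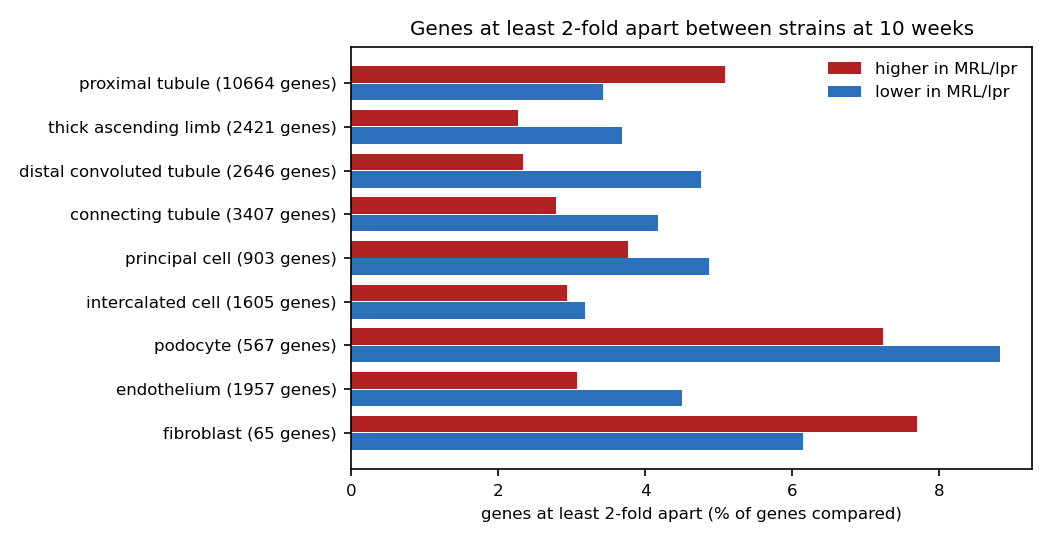
Share of compared genes at least 2-fold higher (red bars) or lower (blue bars) in MRL/lpr than in C57BL/6 at 10 weeks, in % of genes compared, by class (genes compared in brackets; mural cells are not drawn). Podocytes had the longest bars among classes of over 100 compared genes (7.23% higher and 8.82% lower), and the proximal tubule was the only one of these with more higher than lower genes (5.09% and 3.42%).

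A small set of genes was apart in many classes at once. Counting a class only where its own RNA could carry the gene, 14 of 1694 genes (0.826%) were higher in MRL/lpr in at least 4 classes and 13 (0.767%) were lower. These counts moved with the minimum of UMIs for a gene, the depth and mitochondrial content of nuclei and the marker share, as given at the end. Of the 14, 3 are predicted genes without a given name. Of the 13, 3 were mitochondrially encoded. No shared gene went at least 2-fold the other way at 6 weeks in a class that counted, and 7 of the 14 and 6 of the 13 were at least 2-fold apart in the same direction there in each of their classes.

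Colec12, a collectin family scavenger receptor, had the largest ratio of the shared genes (log2 up to 9.89). Like Rnaset2a, it was higher in 7 classes that counted. In proximal tubule nuclei Colec12 stood at 4815 CPM in MRL/lpr and 9.49 CPM in C57BL/6, a 508-fold difference (363 to 733). Raw reads were not available, so what part of the gene they cover was not examined. A Colec12 UMI was found in 90.2% of MRL/lpr and 0.778% of C57BL/6 proximal tubule nuclei. The thick ascending limb gave 6860 and 7.25 CPM, the distal convoluted tubule 9106 and 18.9, and intercalated cells 7490 and 16.1. The MRL/lpr levels were thus of one order in all tubular classes, and those of C57BL/6 were near 0. Podocytes (6171 and 552 CPM), fibroblasts (3276 and 789 CPM) and mural cells (4885 and 484 CPM) gave smaller ratios, and their C57BL/6 levels were above those of the tubular classes. The MRL/lpr level in fibroblasts was below that of proximal tubule nuclei. At 6 weeks the log2 ratio of Colec12 was 7.20 in proximal tubule and 3.84 in podocytes, against 8.99 and 3.48 at 10 weeks.

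Stam2, an adaptor of endosomal sorting, was at 276 CPM in MRL/lpr and 36.3 in C57BL/6 proximal tubule, and at 437 and 21.5 CPM in intercalated cells. Its log2 ratio in the 5 classes that counted ran from 2.43 to 4.34, and from 3.21 to 4.15 at 6 weeks. Bbs9, a subunit of the BBSome that moves cargo in cilia, was higher in 6 classes, at 351 against 91.5 CPM in proximal tubule and 522 against 80.7 in intercalated cells. Rims2, a scaffold of vesicle release best known from synapses, was at 311 CPM in MRL/lpr connecting tubule and 20.1 in C57BL/6. Zfp949, a zinc finger gene, was at 287 and 58.0 CPM in the thick ascending limb. Rnaset2a, a lysosomal ribonuclease gene, was higher in 7 classes (log2 ratio 1.11 to 2.02). Its near-identical copy Rnaset2b was lower in 4 (-4.35 to -2.48), so how reads were split between these copies is uncertain.

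Other shared genes belonged to fewer segments. Adgrg3, an adhesion receptor, was at 1263 CPM in MRL/lpr and 336 in C57BL/6 principal cells but at 48.6 and 64.6 in intercalated cells. Lpin2, a phosphatidate phosphatase of lipid synthesis, was at 1521 and 238 CPM in podocytes and at 98.4 and 145 CPM in proximal tubule. Nipal2 was at 42.9 and 2.51 CPM in proximal tubule and at 577 and 221 CPM in intercalated cells. Rbfox1, a splicing regulator, was higher in podocytes (1597 and 200 CPM), fibroblasts, connecting tubule and principal cells, but lower in the thick ascending limb (56.6 and 156 CPM). Htr1f, a serotonin receptor gene, had log2 ratios of 1.05 to 1.94 in the 5 classes that counted and of -0.41 to 0.38 in them at 6 weeks.

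Among the shared lower genes, Atp4a, the catalytic subunit of the proton and potassium pump best known from the stomach, was the furthest apart. It stood at 10.3 CPM in MRL/lpr and 869 in C57BL/6 principal cells. This is 1 UMI against 119 and an 84.6-fold difference (14.9 to 3368). In nuclei of at least 500 UMIs its log2 ratio there was -0.49, from only 20 MRL/lpr and 42 C57BL/6 nuclei. The thick ascending limb gave 17.4 and 301 CPM, and the distal convoluted tubule 17.8 and 386. Its 6-week log2 ratio was -4.16 to -2.11 in the classes that counted, so Atp4a was low in MRL/lpr in both pairs. Tmcc3, which codes for a membrane protein of the endoplasmic reticulum, was at 71.9 and 496 CPM in principal cells. In the same 20 and 42 nuclei of at least 500 UMIs its log2 ratio was -0.35. Tmcc3 was nearly level, at 1177 and 1399 CPM, in intercalated cells. Ppp1r1a, an inhibitor of protein phosphatase 1, was at 71.1 and 483 CPM in connecting tubule and at 566 and 1584 in the thick ascending limb. Slc1a5, a carrier of glutamine and other neutral amino acids, was at 165 and 577 CPM in the thick ascending limb, and its log2 ratio in the 4 classes that counted was -2.57 to -2.12 at 6 weeks. Slc27a1 (fatty acid uptake), Upp2 (uridine breakdown), Dmac2 (assembly of respiratory complex I) and Eml6 also lay 2-fold or more lower in at least 4 classes. Gadd45g, a stress-response gene, was at 179 and 776 CPM in the thick ascending limb at 10 weeks. Its log2 ratio in the 4 classes that counted was -2.12 to -1.27 at 10 weeks and only -0.58 to -0.26 at 6 weeks.

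**Figure D2:**
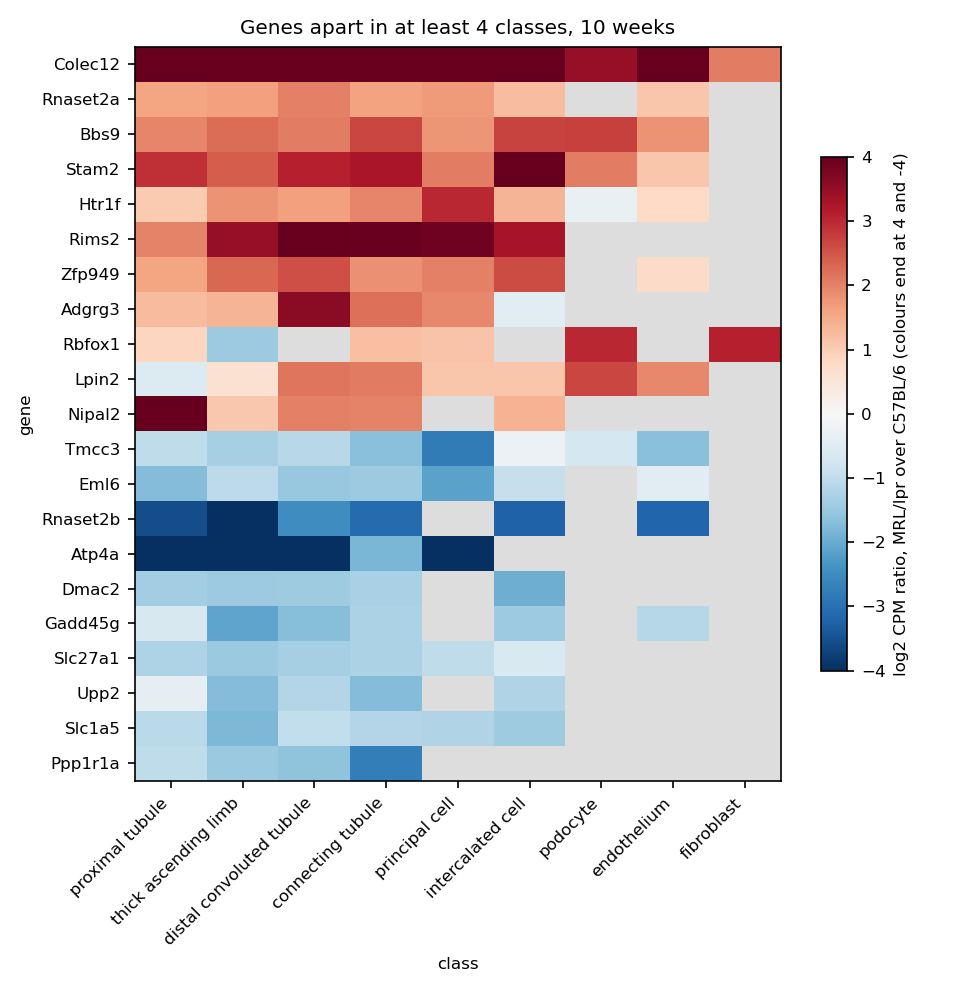
Log2 ratio of CPM in MRL/lpr over C57BL/6 at 10 weeks for the named genes apart in at least 4 classes (vertical) in each class (horizontal); grey marks too few UMIs. Colec12 is red in every class, Tmcc3 is blue in every class drawn in which it was measured, and Rbfox1 and Lpin2 change colour between classes.

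Clock genes were set apart because their level depends on the hour of collection. In proximal tubule nuclei the activators Arntl and Npas2 were lower in MRL/lpr at 10 weeks, and their partner Clock was nearly level. Repressors and outputs went both ways. Of 59 pairs of a core clock gene and a class with at least 20 UMIs, 31 were at least 2-fold apart (7 higher and 24 lower), and 20 of these 31 had the opposite sign at 6 weeks. Over the classes, 4.45% to 20.9% of all genes with at least 20 UMIs were at least 2-fold higher and 4.51% to 12% lower. By comparison, of 54 such pairs of interferon gamma genes 27 were apart and 1 had the opposite sign at 6 weeks. Whether the libraries were collected at different hours was not tested.

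The promoters of the clock genes lower in most classes are shown because the E-box is the motif through which BMAL1 acts on its targets. Per1, a repressor of the loop, was at least 2-fold lower in 4 of 5 classes measured and Arntl in 5 of 6, counting classes below the proximal tubule level (connecting tubule for Per1). The 250 bases before a start site are given 5' to 3' from RefSeq (build GRCm38.p6), with motif matches in capitals. The motifs searched on both strands were CACGTG (E-box), TTATGTAA (D-box), TTCNNNGAA (GAS, an interferon gamma element) and the ISRE, bound by interferon regulatory factors. Of 32851 promoters of this length 6.02% held an E-box, 0.819% a D-box, 7.02% a GAS and 2.98% an ISRE. The first site of Per1, chr11:69098699-69098948 on the plus strand, held 1 E-box 166 bases before the start:
Per1 first site: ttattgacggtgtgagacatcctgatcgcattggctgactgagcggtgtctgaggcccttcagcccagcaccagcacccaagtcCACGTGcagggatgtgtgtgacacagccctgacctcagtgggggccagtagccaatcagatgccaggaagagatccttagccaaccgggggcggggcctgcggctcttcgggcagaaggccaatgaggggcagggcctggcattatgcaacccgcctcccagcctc
The second site of Per1, chr11:69099902-69100151 on the plus strand, held 1 GAS match 210 bases before its start:
Per1 second site: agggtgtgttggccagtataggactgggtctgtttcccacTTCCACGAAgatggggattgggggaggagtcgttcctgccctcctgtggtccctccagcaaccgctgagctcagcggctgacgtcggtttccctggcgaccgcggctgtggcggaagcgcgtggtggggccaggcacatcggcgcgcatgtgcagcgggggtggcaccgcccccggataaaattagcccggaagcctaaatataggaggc
Neither window of Arntl held any of the 4 motifs, and the first one, chr7:113207215-113207464 on the plus strand, reads:
Arntl first site: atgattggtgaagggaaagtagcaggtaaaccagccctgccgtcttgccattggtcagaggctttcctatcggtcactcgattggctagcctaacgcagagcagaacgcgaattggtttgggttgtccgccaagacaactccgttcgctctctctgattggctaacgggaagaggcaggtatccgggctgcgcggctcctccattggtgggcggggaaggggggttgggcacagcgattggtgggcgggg
These matches describe the letters of the windows only.

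The activators of the loop did not move as 1 group. Npas2, the partner of BMAL1, was at 24.97 CPM in MRL/lpr and 203 in C57BL/6 proximal tubule, 8.11-fold lower (6.58 to 10.1), and its log2 ratio was -3.02 at 10 weeks and 1.25 at 6 weeks. Arntl itself was at 30.6 and 138 CPM, with log2 ratios of -2.18 and 1.01. Clock was at 126 and 138 CPM, with a log2 ratio of -0.13 (-0.31 to 0.05), and Rora, a nuclear receptor that activates Arntl, was at 725 and 369 CPM, with 0.97. Arntl was lower in all 6 classes measured, of which only the proximal and distal convoluted tubule reached the proximal tubule level, but at 6 weeks it was higher in only 2 of them.

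The repressors gave a mixed picture. Nr1d1 (REV-ERB alpha) was at 40.9 CPM in MRL/lpr and 6.42 in C57BL/6 proximal tubule, with log2 ratios of 2.67 at 10 weeks and -2.38 at 6 weeks. Nr1d2 was at 75.4 and 29.3 CPM (1.36 and -1.98) and Per3 at 128 and 48.8 CPM (1.39 and -0.53). Per3 was lower at 10 weeks in endothelium (log2 -1.21), distal convoluted tubule (-0.63) and connecting tubule (-0.36). The intervals of the last 2 crossed 0, and Per3 was higher in all of these classes at 6 weeks. In proximal tubule Per1 was at 13.7 and 58.0 CPM (-2.08 and -0.42) and Cry1 at 6.37 and 24.8 CPM (-1.96 and 2.01). Per1 was lower at 6 weeks as well in all 5 classes measured, unlike Npas2 and Cry1 in the proximal tubule. Per2 was lower in 4 of 4 classes at 10 weeks and higher in all 4 at 6 weeks. Among outputs, Dbp, a transcription factor driven directly by the clock, was at 64.9 and 7.25 CPM in proximal tubule (3.16 and -0.22), and its counterpart Nfil3 at 4.90 and 18.1 CPM (-1.89 and -0.07). The sign thus turned between ages for most of the loop but not for all of it.

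Glucocorticoid targets follow a daily hormone rhythm as well as stress, and were set apart with the clock. In proximal tubule 5 of 10 were at least 2-fold lower in MRL/lpr and 2 were higher, where 4.51% and 7.28% of all 12349 genes with at least 20 UMIs were. Sgk1, a kinase that raises sodium transport, was at 35.5 and 415 CPM (log2 -3.55 at 10 weeks and -0.46 at 6 weeks). Zbtb16, a zinc finger transcription factor, was at 37.95 and 267 CPM (-2.81 and -2.55). Fkbp5, a chaperone that dampens the receptor, was at 105 and 317 (-1.60 and -1.44). Zbtb16 was higher at 10 weeks in fibroblasts (log2 1.42), endothelium (0.79), connecting tubule (0.51) and distal convoluted tubule (0.27). The intervals of the last 2 crossed 0, and all of these ratios were negative at 6 weeks. In the thick ascending limb (-0.41) and intercalated cells (-0.66) Zbtb16 was lower, at levels below the proximal tubule. Tsc22d3 (GILZ) was at 52.4 and 176 CPM in proximal tubule (-1.75 and 0.40). It was at least 2-fold lower in all 5 classes measured (-2.87 to -1.15), and at 6 weeks its ratios ran from -0.88 to 0.40. In the distal convoluted and connecting tubule it lay below the proximal tubule level, and the part of free RNA in those values was not tested. In proximal tubule the metallothioneins Mt1 (579 and 46.9 CPM, log2 3.63) and Mt2 (184 and 5.02 CPM, 36.7-fold) went the other way. Their 6-week log2 ratios were 0.33 and 0.45, with 615.6 and 179.5 CPM in C57BL/6. Both genes were thus lowest in the C57BL/6 10 week library of all 4. In the thick ascending limb their 10-week log2 ratios were 0.11 and 0.31, and in the distal convoluted tubule 0.24 and 1.27. The list therefore did not shift as 1 block.

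**Figure D3:**
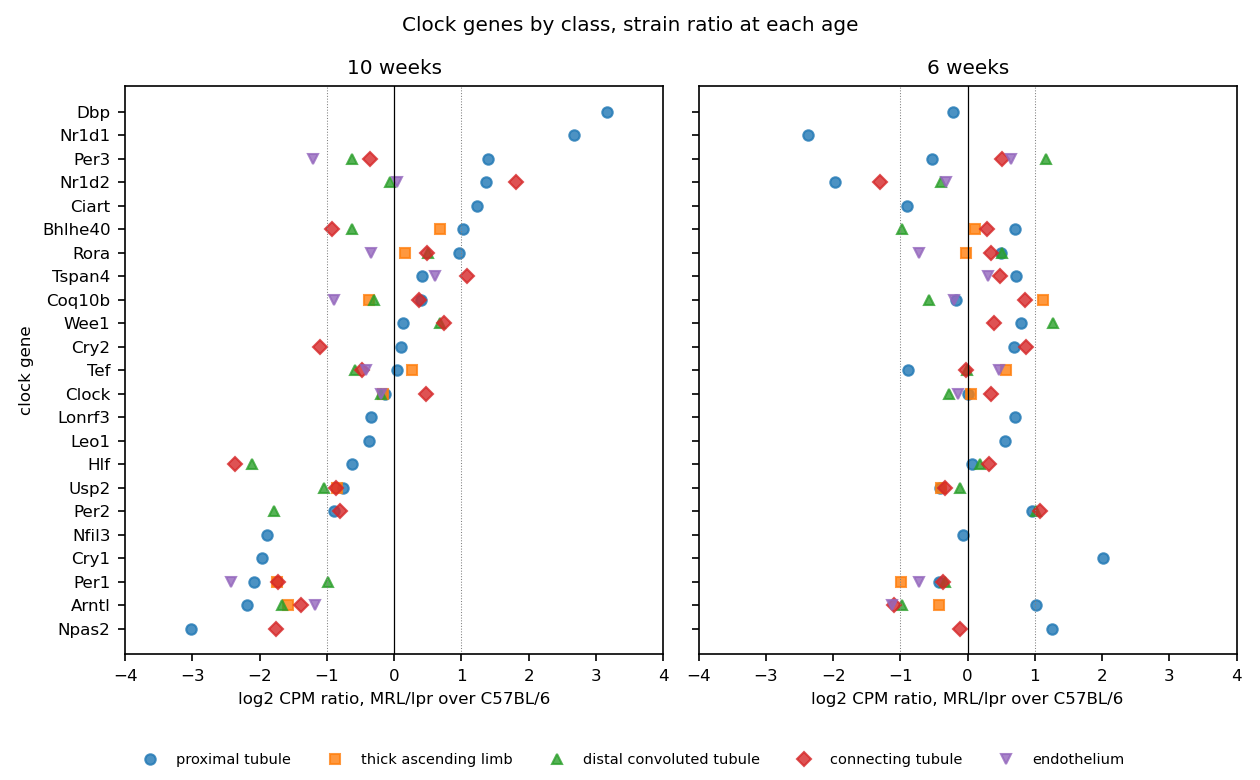
Log2 ratio of CPM in MRL/lpr over C57BL/6 (horizontal) of core clock and clock output genes (not all are drawn; vertical, ordered by proximal tubule at 10 weeks), at 10 weeks (left) and 6 weeks (right); each symbol is a class and dotted lines mark a 2-fold difference. Npas2 and Arntl lie left at 10 weeks and right at 6 weeks in proximal tubule (circles), and Nr1d1 does the reverse.

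Mitochondrially encoded RNA was lower in MRL/lpr in nearly every class. In proximal tubule all 11 genes measured were lower, 8 of them at least 2-fold, with a median log2 ratio of -1.30. Their summed level was 1022 CPM in MRL/lpr and 2252 in C57BL/6 at 10 weeks, and 2794 and 2132 CPM at 6 weeks. Of 69 pairs of gene and class, 43 were at least 2-fold lower and 0 higher. The median was -1.09 in the thick ascending limb, -0.96 in principal cells, -1.17 in connecting tubule, -1.08 in intercalated cells and -0.50 in endothelium. In endothelial nuclei of at least 500 UMIs (only 42 in MRL/lpr and 45 in C57BL/6) the median was 0.22. In a preparation of nuclei such RNA comes from cytoplasm and mitochondria carried along. It was detected in 39.3% of MRL/lpr and 60.4% of C57BL/6 nuclei at 10 weeks.

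Podocytes had the widest gap of the 9 classes with this list measured. Their summed mitochondrial level was 1176 CPM in MRL/lpr and 10192 in C57BL/6, with a median log2 ratio of -3.07 over 8 genes. The difference was also present at 6 weeks, at 2713 and 10094 CPM (median -1.82). The C57BL/6 podocyte level was thus alike at both ages, and above that of every C57BL/6 tubule class. mt-Co3, a subunit of cytochrome oxidase, was at 345 and 2427 CPM in podocytes. mt-Co1, another, was at 130 and 1561 CPM.

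Cytosolic ribosomal protein genes were lower by less. In proximal tubule 80 of 81 were lower with a median log2 ratio of -0.46, although only 2 were at least 2-fold lower. The median was -0.39 to -0.66 in the other classes with the list measured, except podocytes at -0.96. At 6 weeks the proximal tubule median was 0.28. Nuclear-encoded respiratory chain genes, whose mRNA is also cytoplasmic, had a median of -0.54 in proximal tubule (68 of 77 lower) and -1.03 in podocytes. At 6 weeks these medians were -0.27 and -0.32.

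Most proximal tubule genes apart lay outside the lists set apart and were not called tied to RNA content. The part of RNA content and of the hour of collection in the remaining genes was not tested. Genes were called tied to content where nuclei of the same library with and without a mitochondrial UMI, or above and below the median ribosomal share, differed at least 1.5-fold in the same direction in both 10-week libraries. Of the 543 higher genes, 8 were in the clock and glucocorticoid lists, 0 in the mitochondrial, ribosomal and respiratory lists and 13 were tied to content only, which left 522. Of the 365 lower genes, 10, 12 and 22 were set apart in the same way, which left 321. The comparison by content needed 20 UMIs in each library and covered 663 of the 908 genes apart, so the rest are counted as left without having been assessed. Of all 10298 genes assessed, 0.923% were tied to mitochondrial and 2.17% to ribosomal content, against 1.36% and 4.22% of the 663 apart. Of those left and compared at 6 weeks, 195 of 487 higher and 136 of 304 lower genes were at least 2-fold apart in the same direction there. The opposite sign was found for 77 and 47. In the proximal tubule 16 genes turned, with a 2-fold or wider gap in one direction at 10 weeks and in the other at 6 weeks, and 6 of these were core clock genes, among them Npas2, Arntl, Cry1, Nr1d1 and Nr1d2. The other 10 included Bcl6, a transcriptional repressor, at 53.9 and 153 CPM at 10 weeks, and Slc10a2, the apical bile acid carrier, at 41.4 and 86.5 CPM.

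With the lists set apart, the proximal tubule genes furthest above C57BL/6 included Colec12 and several genes of secreted proteins. Rnase4, a secreted ribonuclease, was at 102 CPM in MRL/lpr and 0.558 in C57BL/6, which is 417 against 2 UMIs and 183-fold (50.3 to 1516). Ang4, an antimicrobial ribonuclease of the angiogenin family, was at 139 CPM against 0, at least 166-fold higher, though near-identical angiogenin genes may share its reads. Prss48, a serine protease gene, was at 101 CPM against 0, at least 121-fold higher. Angptl7, a secreted angiopoietin-like protein, was at 141 and 1.95 CPM. Snap91 (clathrin coats), Cacna2d2 (a calcium channel subunit), AA986860 (tied to ribosomal content), Ankrd55 and Serpina3b completed the list, and each had a 6-week log2 ratio of at least 4.89. All 10 of these genes were also higher in MRL/lpr at 6 weeks, with log2 ratios of 4.21 to 8.76. They were counted in few nuclei: an Ang4 UMI was found in 8.32% of MRL/lpr proximal tubule nuclei.

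The genes furthest below C57BL/6 included that of a carrier protein and several of enzymes. Ttr, which carries thyroid hormone and retinol-binding protein, was at 0.979 CPM in MRL/lpr and 87.6 in C57BL/6, 89.5-fold lower (34.6 to 330). Cyp2f2, a xenobiotic cytochrome P450, was at 0.490 and 28.7 CPM (2 and 103 UMIs, 58.7-fold, 15.8 to 491). Inmt, a methyltransferase of tryptamines, was at 1.71 and 83.7 CPM. Amdhd1, of histidine breakdown, was at 0 and 14.5 CPM, at least 19.8-fold lower. Angptl4, an inhibitor of lipoprotein lipase, was at 2.94 and 47.7 CPM. Nxpe3, Olfr1033, H2-Q6 and Slitrk1 were also among the 10 lowest. All 10 were lower at 6 weeks as well, with log2 ratios of -7.87 to -2.84.

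Among lists of the proximal tubule, interferon gamma genes stood highest. Of 23 measured, 17 were at least 2-fold higher and 0 lower, against the 7.28% of all genes given above. The median log2 ratio was 1.49, and 1.65 at 6 weeks. B2m, the light chain of MHC class I and by far the most counted member, did not follow at 10 weeks. It was at 529 and 588 CPM (log2 -0.15, interval -0.24 to -0.07), and its log2 ratio at 6 weeks was 1.45. Iigp1, an immunity-related GTPase, was at 82.0 and 5.30 CPM (15.5-fold higher), with log2 ratios of 3.95 at 10 weeks and 2.96 at 6 weeks. Cxcl10, a chemokine that draws T cells, was at 16.2 and 0.837 CPM, which is 66 against 3 UMIs (log2 4.27, interval 2.66 to 6.59, and 2.68 at 6 weeks). Tap2, a subunit of the transporter that feeds peptides to MHC class I, was at 38.4 and 11.7 CPM. Tap2 was higher in all 6 classes measured, at least 2-fold in 4. The type I interferon list differed less: 5 of 16 genes were at least 2-fold higher, with a median of 0.32. Stat2, which carries type I interferon signals, was at 74.4 and 34.0 CPM. Class markers of immune cells summed to 93.8 CPM in MRL/lpr and 67.5 in C57BL/6 proximal tubule nuclei, and their part in the result was not tested.

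Fatty acid genes lay on the lower side. Of 28 measured, 7 were at least 2-fold lower and 0 higher (median -0.49 at both ages), where 4.51% of all genes with at least 20 UMIs were lower. Cyp4a14, a fatty acid hydroxylase induced through PPAR alpha, was at 97.5 and 675 CPM, with log2 ratios of -2.79 at 10 weeks and -1.68 at 6 weeks. Its values in 3 other classes lay below the proximal tubule level. Pdk4, a brake on glucose oxidation, was at 4.41 and 20.4 CPM, and Ehhadh, of peroxisomal beta-oxidation, at 111 and 282 CPM. Cyp4a14 was also among the genes tied to ribosomal content. Proximal tubule transport genes were nearly level, with 0 of 28 at least 2-fold higher and 1 lower (median -0.10). The 1 was Slc5a8, a carrier of lactate and other monocarboxylates, at 114 and 242 CPM.

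Of 9 injury genes measured in the proximal tubule, 3 were at least 2-fold higher and 0 lower, where 7.28% and 4.51% of all genes were. Vcam1, an adhesion molecule of failed repair, was at 22.0 CPM in MRL/lpr and 2.23 in C57BL/6 (90 and 8 UMIs, 9.87-fold, 4.80 to 23.6), while its log2 ratio at 6 weeks was -0.22. Ccl2, a monocyte chemokine, had 25 against 1 UMIs (21.9-fold, 3.59 to 901), and its log2 ratio at 6 weeks was 0.62. Havcr1 (KIM-1) had 29 against 0 UMIs, at least 8.48-fold higher. Spp1 (osteopontin), a secreted matrix protein and by far the most counted of the list, was at 890 and 484 CPM (log2 0.88, and 0.83 at 6 weeks). Among complement genes, C4b was at 25.2 and 1.12 CPM (log2 4.50, and 3.54 at 6 weeks). Dusp1, a phosphatase of the early response, was at 49.95 and 199.5 CPM (3.99-fold lower, and a log2 ratio of -0.54 at 6 weeks), while Jun, Junb, Ier2, Ier3 and Egr1 were 2.02 to 2.98-fold higher. Hspa8, a heat shock cognate chaperone, was at least 2-fold lower in all 8 classes measured (log2 -2.26 to -1.47) and lower in all 8 at 6 weeks (-1.49 to -0.56). Its level in the 7 classes beside proximal tubule lay below that of proximal tubule nuclei, and the part of free RNA in those values was not tested.

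**Figure D4:**
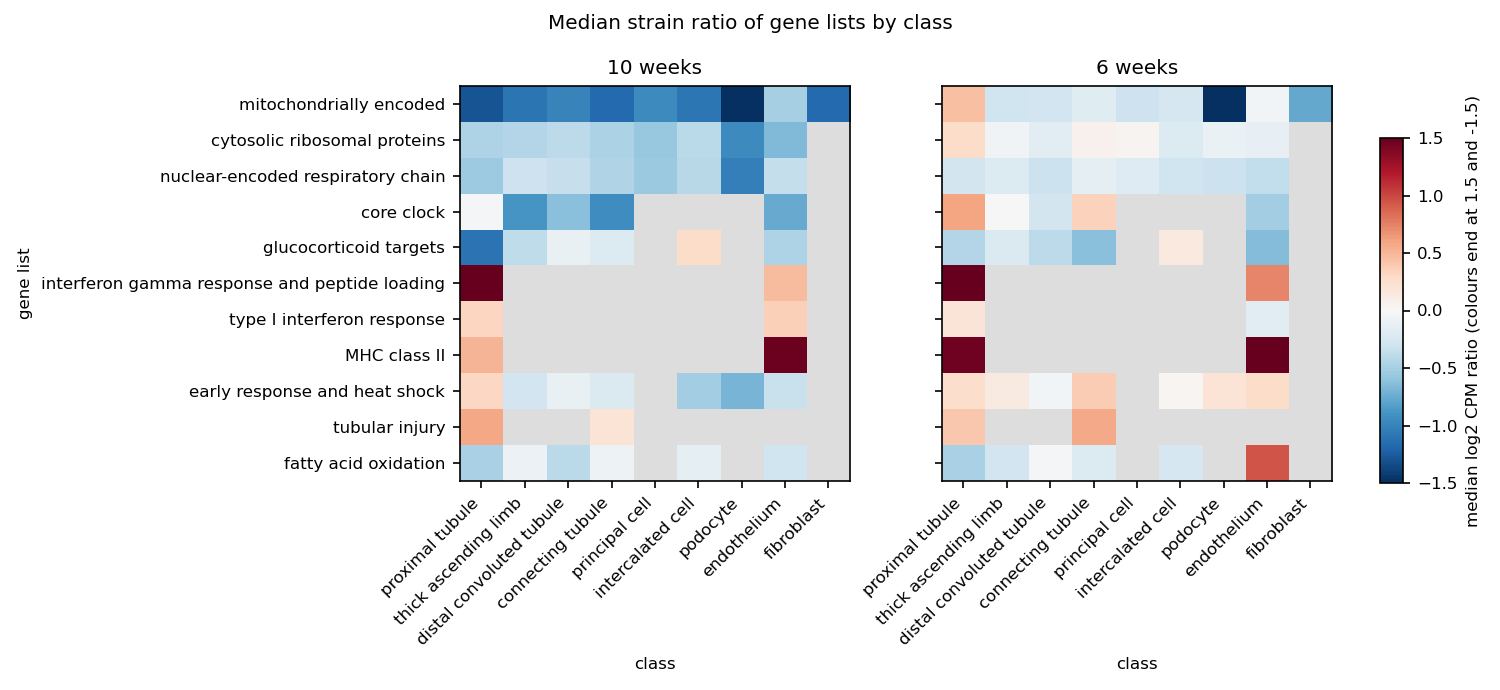
Median log2 ratio of CPM in MRL/lpr over C57BL/6 of gene lists (vertical) in each class (horizontal) at 10 weeks (left) and 6 weeks (right), where at least 5 genes had 20 UMIs; grey marks fewer. The row of mitochondrially encoded genes is blue in all classes at 10 weeks but red in proximal tubule at 6 weeks, and the interferon gamma row is red in proximal tubule at both.

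The salt transport genes measured in the thick ascending limb were nearly level between strains. Of 15 transport genes none was at least 2-fold apart, and the median log2 ratio was -0.17. Of all 5824 genes with at least 20 UMIs there, 259 were at least 2-fold higher and 388 lower, so few of 15 would be apart at that share. Egf, the growth factor precursor made in this segment, was at 17385 and 12258 CPM. Spp1 was at 5202 and 1751 CPM, and Clu, a secreted chaperone of injured tubules, at 144 and 29.0 CPM. Their log2 ratios were 1.57 and 2.31 at 10 weeks, and 0.77 and 0.02 at 6 weeks.

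Beyond Colec12, Stam2 and Rims2, the genes furthest above C57BL/6 here included Cfap54, a protein of motile cilia, at 200 and 32.6 CPM. On the lower side, Col5a2, a fibrillar collagen chain, was at 8.71 and 337 CPM, which is 2 against 93 UMIs and 38.7-fold (10.4 to 325). Tenm2, a teneurin adhesion protein, was at 78.4 and 877 CPM (11.2-fold, 6.94 to 19.2). Tenm2 was found in 2.92% of MRL/lpr and 23.9% of C57BL/6 nuclei of the segment. Both Col5a2 and Tenm2 were low in MRL/lpr at 6 weeks too, with log2 ratios of -4.99 and -4.09. The genes of protein folding in the endoplasmic reticulum Pdia6 (100 and 236 CPM) and Sdf2l1 (43.5 and 174 CPM) were lower at 10 weeks and at least 2-fold higher at 6 weeks.

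In the distal convoluted tubule, the list of sodium, calcium and magnesium genes was centred on 0 (median -0.01), with 2 of 27 at least 2-fold higher, where 4.52% of all genes with at least 20 UMIs were. Pth1r, the parathyroid hormone receptor, was at 237 and 75.5 CPM, below its proximal tubule level and nearly level at 6 weeks (log2 -0.16), and Cnnm2, a protein of magnesium handling, at 575 and 202 CPM. The gene furthest apart after Colec12 and Stam2 was Epb41l3, a membrane skeleton protein, at 1572 and 189 CPM (8.33-fold, 6.38 to 11.0). Epb41l3 was found in 167 of 322 MRL/lpr and 63 of 700 C57BL/6 nuclei and was 6.17-fold higher at 6 weeks. Slc25a30, a mitochondrial carrier, was at 427 and 91.7 CPM. Spp1 was at 1453 and 418 CPM, as it was higher in the thick ascending limb.

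Lower genes here included Pttg1 (securin), at 23.7 and 194 CPM, which was at 22.5 and 172 CPM in connecting tubule. Slc15a2, a peptide carrier, was at 23.7 and 162 CPM and Ctif, a translation initiation factor, at 77.1 and 305 CPM. At 6 weeks their log2 ratios were 0.45 and 0.00, and that of Pttg1 was -2.74.

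In the connecting tubule 327 of all 7024 genes with at least 20 UMIs were at least 2-fold higher and 451 lower. Of the same 27 genes as in the distal convoluted tubule 1 was at least 2-fold apart there, Sgk1 (44.9 and 96.1 CPM). Its C57BL/6 level there was below the 415 CPM of proximal tubule nuclei, and the part of free RNA in this value was not tested. Greb1, a gene induced by oestrogen receptor, was at 341 CPM in MRL/lpr and 0 in C57BL/6, at least 50.8-fold higher, and was found in 72 of 480 and 0 of 715 nuclei. At 6 weeks Greb1 had 112 against 1 UMIs. Fam129a (Niban), a stress protein, was at 26.2 and 197 CPM at 10 weeks, but nearly level at 6 weeks (log2 -0.11). Colgalt2, a collagen galactosyltransferase, was at 22.5 and 134 CPM and was lower at 6 weeks as well (-3.48).

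Principal cells showed 2 genes of the collecting duct list at least 2-fold higher of 16 (median 0.21), where 7.22% of all genes with at least 20 UMIs were. Stc1, a secreted calcium and phosphate regulator, was at 195 and 21.9 CPM, which is 19 against 3 UMIs (8.91-fold, 2.62 to 47.0). Egfem1 was the highest named gene after Colec12, at 2300 and 131 CPM (17.5-fold, 10.8 to 30.1), in 38.2% and 4.33% of nuclei. Erbb4, a receptor of neuregulins, was at 1838 and 460 CPM. Il1rapl1, best known from synapses, was at 719 and 94.9 CPM. The 6-week log2 ratios of Il1rapl1 and Erbb4 were only 0.18 and 0.71.

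Prom1 (CD133), a membrane protein of progenitors and tubules, was at 10.3 and 489 CPM in principal cells, which is 1 against 67 UMIs and 47.6-fold lower (8.26 to 1909). Spock3, an extracellular proteoglycan, was at 41.1 and 511 CPM and Adh1, an alcohol dehydrogenase, at 103 and 547 CPM. Spock3 was lower at 6 weeks also (log2 -5.57), while Adh1 was nearly level (-0.31). Spp1 was at 421 and 963 CPM, opposite to its direction in the thick ascending limb and distal convoluted tubule, and its log2 ratio at 6 weeks was 0.14. Principal cell counts were small (97390 and 137022 UMIs). With only nuclei of at least 500 UMIs, 5 of 43 genes compared were apart, in place of 78 of 903.

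The acid-base genes measured in intercalated cells were nearly level, with 0 of 18 at least 2-fold apart and a median log2 ratio of -0.06. Of all 4520 genes with at least 20 UMIs there, 275 were at least 2-fold higher and 281 lower, so few of 18 would be apart at that share. Car2, the cytosolic carbonic anhydrase, was at 1590 and 1071 CPM. Nlgn1, an adhesion protein of synapses, was at 577 and 5.38 CPM, which is 95 against 1 UMIs and 107-fold (18.8 to 4277). A Nlgn1 UMI was found in 60 of 305 MRL/lpr and 1 of 365 C57BL/6 nuclei. Dkk3, a secreted protein of the Dickkopf family, was at 328 CPM and 0, at least 20.3-fold higher. Both were higher at 6 weeks, with log2 ratios of 5.45 and 3.34.

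The lower genes of intercalated cells included Tmem61, at 12.1 and 441 CPM (2 against 82 UMIs, 36.3-fold, 9.75 to 305). Abr, a regulator of small GTPases, was at 206 and 936 CPM, Ivns1abp at 182 and 786 CPM, and Gadd45a, a stress gene related to Gadd45g, at 97.1 and 463 CPM. Of the 86 genes apart in this class and compared at 6 weeks, 0 turned to a 2-fold gap in the other direction.

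Podocytes kept their structural program while a few other genes differed widely. Of 27 structure genes measured only Inf2, an actin regulator, was at least 2-fold apart (7.92% of all genes with at least 20 UMIs were higher), at 561 and 190 CPM (2.95-fold, 1.73 to 5.21), and the median log2 ratio was 0.18. Podxl, the main sialoprotein of the podocyte surface, was at 5804 and 9802 CPM, 1.69-fold lower (1.52 to 1.88). Magi2, a scaffold of the slit diaphragm, was at 81526 and 66768 CPM. These levels came from 148 and 213 nuclei with medians of 599 and 444 UMIs.

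Epha6, an ephrin receptor, was at 2082 CPM in MRL/lpr podocytes and 0 in C57BL/6, at least 72.9-fold higher. It was found in 39.9% of MRL/lpr podocyte nuclei (59 of 148) and in 0 of 213 of C57BL/6. Epha6 was much lower in MRL/lpr podocytes at 6 weeks, where it was at 109 CPM (6 UMIs) against 0. Car12, a membrane carbonic anhydrase, was at 939 and 9.52 CPM, which is 87 against 1 UMIs and 98.6-fold (17.2 to 3940). Ccn2 (CTGF), a matricellular protein, was at 1812 and 238 CPM, and Ccn1 of the same family at 453 and 57.1 CPM, with log2 ratios of 2.93 and 2.99. Both were also higher at 6 weeks (1.49 and 2.45). Rbfox1 rested partly on a single nucleus, which held 35 of its 148 UMIs.

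On the lower side H2-Q7, a nonclassical MHC class I gene, was at 10.8 CPM in MRL/lpr and 3540 in C57BL/6 podocytes, which is 1 against 372 UMIs and 328-fold (58.5 to 12996). H2-Q6 was at 10.8 and 1856 CPM. The H2-Q genes are near-identical to one another and differ in sequence between MHC haplotypes, so counts of reads that fit the reference may differ for that reason, which was not tested. H2-Q7 was found in 77.5% of C57BL/6 podocyte nuclei. Nsf, a motor of membrane fusion, was at 130 and 1389 CPM, Samd12 at 64.7 and 695 CPM, and Lpl (lipoprotein lipase) at 64.7 and 581 CPM. All 5 were lower in MRL/lpr at 6 weeks, with log2 ratios of -6.65 to -3.06. Hspa5 (BiP), the main chaperone of the endoplasmic reticulum, was at 259 and 904 CPM at 10 weeks and at least 2-fold higher at 6 weeks. Markers of endothelium summed to 162 and 85.7 CPM in podocytes and those of immune cells to 64.7 and 28.6, with 13 and 15 of the 17 immune markers at 0. The class rule itself limits these sums.

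Endothelial nuclei had more MHC class II RNA in MRL/lpr. Of 6 such genes measured 5 were at least 2-fold higher, where 5.73% of all 4906 genes with at least 20 UMIs were, and all 6 were higher, with a median log2 ratio of 1.47 at 10 weeks and 1.87 at 6 weeks. Cd74, the invariant chain that guards the peptide groove, was at 3507 and 544 CPM (6.45-fold, 5.37 to 7.79), and was found in 47.7% of MRL/lpr and 12.2% of C57BL/6 endothelial nuclei. H2-DMb1, which helps load the groove, was at 369 and 44.7 CPM, H2-Aa at 456 and 149, and H2-Ab1 at 569 and 227. The summed list was at 5076 and 1068 CPM in endothelium, against 489 and 340 CPM in proximal tubule. Immune markers summed to 150 and 112 CPM in endothelial nuclei, 0.783% and 0.668% of their level in the immune class, and 7 and 6 of 17 were at 0. The class rule itself limits these sums, and the part of immune RNA in the class II result was not tested. The 15 interferon gamma genes measured had a median of 0.48, with 3 at least 2-fold higher, among them Iigp1 (488 and 138 CPM) and Nlrc5, and 1, Gbp7, lower (0.86 at 6 weeks).

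Other genes higher in MRL/lpr endothelium were of mixed kinds, matrix genes among them. Pi16, a peptidase inhibitor, was at 981 and 93.1 CPM (10.5-fold, 6.88 to 16.8), in 23.1% and 2.75% of nuclei. Unc5c, a netrin receptor, was at 513 and 52.1 CPM and Mdga2, an adhesion protein, at 419 and 14.9 CPM. Sparc, a matrix-binding glycoprotein, was at 2250 and 696 CPM, and the basement membrane chains Col4a1 and Col4a2 were at 1213 and 566 CPM and at 700 and 324 CPM. Col4a1 and Col4a2 were level at 6 weeks (log2 -0.02 and 0.03), and Sparc was higher by 0.72. Igfbp3, a binder of insulin-like growth factors, was at 1569 and 741 CPM. Cfb, which starts the alternative complement pathway, was at 131 and 18.6 CPM (log2 2.82, and 0.23 at 6 weeks). Mural markers summed to 719 and 436 CPM in endothelial nuclei, and their part in the matrix result was not tested.

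Sox17, a transcription factor of arterial endothelium, was at 31.3 and 138 CPM, the furthest below C57BL/6 of the endothelial list, in which 1 of 27 genes was at least 2-fold higher and 3 lower, where 5.73% and 7.22% of all genes were. Eln (elastin) was at 125 and 253 CPM at 10 weeks, but its log2 ratio at 6 weeks was 1.14. Nxpe4 was at 0 and 242 CPM, at least 12.9-fold lower, and H2-Q6 at 0 and 518 CPM, at least 27.6-fold lower. Rb1cc1, a starter of autophagy, was at 37.5 and 194 CPM, from 6 UMIs in MRL/lpr. In nuclei of at least 500 UMIs its log2 ratio was 0.10. Only 42 MRL/lpr and 45 C57BL/6 endothelial nuclei were that deep, too few to show whether the difference is absent. They gave 8 genes apart of 73 compared, in place of 148 of 1957. Igkc, the immunoglobulin kappa constant chain made by plasma cells, had 53 UMIs in MRL/lpr, but 46 of them came from 1 of 4 nuclei, so it describes a single barcode.

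**Figure D5:**
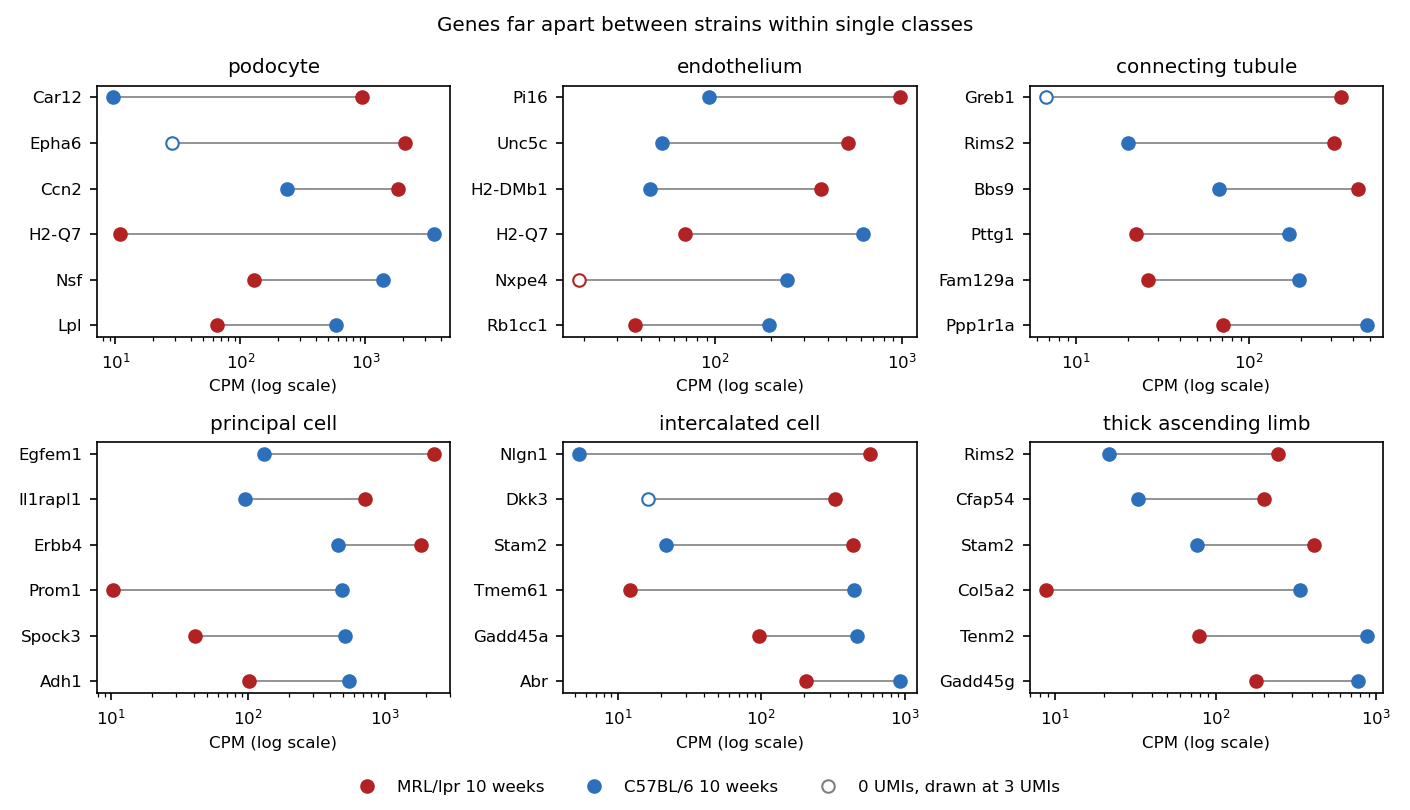
CPM (horizontal, log scale) of 6 genes in each of 6 classes in MRL/lpr (red) and C57BL/6 (blue) at 10 weeks; each point is 1 library, lines join the strains, and open points mark 0 UMIs, drawn at 3. The points of Epha6 in podocytes lie at least 72.9-fold apart and those of H2-Q7 lie 328-fold apart the other way.

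Fibroblast and mural nuclei allow few statements. Among fibroblasts, Rbfox1 was at 2246 and 263 CPM (log2 0.48 in nuclei of at least 500 UMIs), Cald1 (caldesmon, of contractile cells) at 2246 and 841 CPM, and B2m, the light chain of MHC class I, at 2293 and 1051 CPM. In nuclei of at least 500 UMIs the log2 ratio of B2m was -0.01. That subset, which also gave the Rbfox1 value, held only 7 MRL/lpr and 5 C57BL/6 fibroblast nuclei. Ecm1, an extracellular matrix protein, was at 1264 and 3785 CPM and was lower at 6 weeks as well (log2 -1.41). Rbpms (889 and 2313 CPM) and Abca8a (889 and 2155 CPM) were nearly level at 6 weeks. Col1a1, the main collagen of scars, had 19 against 4 UMIs (889 and 210 CPM) and a 6-week log2 ratio of -0.59. Of 15 matrix genes 1 was lower, Ccn1. Of all 253 fibroblast genes with at least 20 UMIs, 23 were at least 2-fold higher and 26 lower. Few of 15 would thus be apart at that share. In mural nuclei Ren1 (renin) had 239 against 3 UMIs, 86.9-fold (29.4 to 424), but all 239 came from 3 nuclei and 139 from 1 of them. Mgp, an inhibitor of calcification, had 56 against 1 UMIs from 10 of 21 and 1 of 22 nuclei.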

How the data were processed

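Nuclei of 4 libraries (MRL/lpr and C57BL/6, 6 and 10 weeks) were deposited by the authors as matrices of UMI counts, genes by barcodes. Cell Ranger is version 5.0.0 per the file headers, whereas the submitters' processing notes give 3.1.0. Whether intronic reads were counted is not given in the sources used here, nor is the genome build. The members and lists were chosen with earlier results of these data known.

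For each library and class, the counts of 25636 genes were added up across nuclei and divided by their total to give CPM. Classes came from raw UMIs of 88 markers, without clustering, and nuclei without a class (17.4% and 18.6% of the 10-week libraries) were left out. Class markers were not compared. Ratios have conditional exact 95% intervals. Named genes were the 10 highest and 10 lowest of proximal tubule, the 5 highest and 5 lowest of other classes that reached the proximal tubule level, genes shared by at least 4 classes, and list members at least 2-fold apart or most abundant; predicted genes, class markers and the lists set apart were not named by rank. Some genes that met this rule are not reported here. Of the symbols, 27 belong to several gene IDs and were kept apart. Doublets were not removed; Scrublet in scanpy 1.11.5 marked 525 and 752 barcodes of the 10-week libraries, and leaving these out was 1 of 10 alternatives. The ratios were tested on simulated counts. Analyses ran in Python 3.11.15 with numpy 2.4.6, scipy 1.17.1 and pandas 2.3.3.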

Additional observations from a re-analysis of the deposited data

Results flagged for a closer look

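In proximal tubule nuclei the median log2 ratio of mitochondrially encoded genes was -1.30 at 10 weeks and 0.45 at 6 weeks, so the strains differed in opposite directions at the 2 ages. All 11 genes measured lay on the lower side at 10 weeks. The median log2 ratio of cytosolic ribosomal protein genes in the same nuclei was -0.46 at 10 weeks and 0.28 at 6 weeks. With 1 library per group, neither difference between ages was tested. Among single genes the same turn of sign, at least 2-fold each way, was seen in 16 proximal tubule genes.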

How the results depend on the processing

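No paired analysis was possible because each group holds 1 library. Of the alternatives, the minimum of UMIs for a gene, the depth of nuclei and mitochondrial content moved the counts of genes apart by over 1.5 times, partly because fewer or more genes were compared. With at least 20 UMIs per gene the counts were 1456 in proximal tubule, 647 in thick ascending limb, 804 in distal convoluted tubule, 778 in connecting tubule, 456 in principal cells, 556 in intercalated cells, 392 in podocytes, 635 in endothelium and 49 in fibroblasts, and 31 higher and 32 lower genes were shared. With at least 100 UMIs they were 52 in thick ascending limb, 56 in distal convoluted tubule, 75 in connecting tubule, 25 in principal cells, 27 in intercalated cells, 40 in podocytes, 56 in endothelium and 0 in fibroblasts, with 3 and 4 shared. With nuclei of at least 500 UMIs they were 68 in thick ascending limb, 99 in distal convoluted tubule, 147 in connecting tubule, 5 in principal cells, 60 in intercalated cells, 8 in endothelium and 1 in fibroblasts, with 4 and 5 shared. Only 43 genes were compared there in principal cells, 73 in endothelium and 2 in fibroblasts. In these nuclei the mitochondrial median was -1.93 in thick ascending limb and 0.22 in endothelium. The log2 ratio was 0.10 for Rb1cc1 in endothelium and -0.01 for B2m in fibroblasts. The endothelial values came from 42 and 45 nuclei and the fibroblast value from 7 and 5. Nuclei with no mitochondrial UMI gave 58 in thick ascending limb, 67 in distal convoluted tubule, 91 in connecting tubule, 46 in principal cells, 46 in intercalated cells, 44 in podocytes, 32 in endothelium and 2 in fibroblasts, with 5 and 3 shared. A marker share of 75% gave 156 in connecting tubule and 1 in fibroblasts, with 8 and 7 shared, and 3 marker UMIs gave 4 in fibroblasts. The proximal tubule count was 699 in nuclei with no mitochondrial UMI and 642 with at least 100 UMIs per gene, and 897 to 915 under the settings of class, doublets, depth of nuclei, scaling and an added count. Median ratio scaling moved the share of higher genes by over 10 points only in fibroblasts, from 55.6% to 44.4%. Of the other values, 65 counts, 269 list medians and 736 ratios of named genes kept direction and size, and 46 ratios moved.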
